A study of Mus musculus with 22 samples.

Results

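Tumours from 6 obese mice given sulindac were compared with 16 tumours from mice that had not received the drug. Together these are all 22 tumours of the series, so each array entered the comparison. All mice were males of the inbred FVB/N strain, and all tumours were colon tumours raised with azoxymethane, a chemical carcinogen used to induce colon cancer in rodents. The 6 sulindac tumours came from mice fed a high-fat diet (60% of energy as fat). The untreated side held 3 regimens: 5 obese mice on the same high-fat diet (titled DIO), 6 control mice kept on a low-fat diet (10% of energy as fat), and 5 formerly obese mice whose high-fat feeding had been replaced by low-fat feeding. The untreated level of a gene was the mean of the 3 group means, so that each regimen weighed the same. Sulindac was given only on the high-fat diet, so against the control and formerly obese groups the drug and the diet cannot be told apart, and only the obese group shared the diet of the treated mice. The dose, route and duration of sulindac and the time spent on each diet are not given in the labels used here. The titles give each tumour a mouse number of its own, except a sulindac tumour titled Mouse_X.

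Sulindac is a non-steroidal anti-inflammatory prodrug. Gut bacteria and tissue enzymes reduce it to a sulfide that inhibits the cyclooxygenases, the enzymes that start prostaglandin synthesis, and oxidise it to a sulfone that does not. Prostaglandin E2, made from cyclooxygenase product by prostaglandin E synthase, acts on colon cells through the receptors of the genes Ptger2 and Ptger4 and is broken down by the dehydrogenase of the gene Hpgd. Effects of sulindac that do not need the cyclooxygenases have been described for cyclic GMP phosphodiesterases, polyamine export, WNT signalling and apoptosis. Gene lists for these routes, for other tumour processes and for the cell types a colon tumour can hold give the order of the results below.

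Each array gave a level for 22203 probe sets, and a level is stated in log2 units throughout. Array medians lay between 6.67 and 6.83, and the correlation between arrays ran from 0.947 to 0.988. The tumours carried epithelial genes in every sample: Epcam, an epithelial adhesion gene, lay between 16.67 and 17.43, Krt8, a keratin of simple epithelium, between 14.84 and 16.86, and Vil1, which encodes the microvillus protein villin, between 12.11 and 14.42. Cdx2, the intestinal identity factor, was far more variable, from 5.92 in sulindac Mouse_114 to 13.64 in a control tumour. Lor, a gene of keratinising epithelium, stayed between 3.85 and 4.82. These are pieces of tumour tissue, so fewer cells of a type and less RNA per cell cannot be told apart in any value that follows, and nothing says how much normal mucosa, muscle or lymphoid tissue each piece held.

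No gene passed the threshold. In the limma fit, 0 of 22203 probe sets (0.0%) reached an adjusted p under 0.05 (Benjamini-Hochberg, two-sided), and the smallest adjusted p, 0.295, was shared by 45 probe sets. At an unadjusted p under 0.05 there were 1633 (7.35%), of which 855 (3.85%) lay higher and 778 (3.5%) lower with sulindac. Against each untreated group by itself the same fit called 0 (0.0%): against obese tumours 1454 probe sets (6.55%) had an unadjusted p under 0.05, against control 1473 (6.63%) and against formerly obese 1470 (6.62%). These 3 contrasts share the 6 sulindac arrays and are not independent of each other. Without sulindac Mouse_114 the fit called 2 genes, Igsf10 at 1.92 and Trp53bp1 at -0.93 (limma adjusted p = 0.0477 for both), and without obese Mouse_96 it called Pole4 against obese tumours at -1.20 (limma adjusted p = 0.0220). Every gene named below is therefore described by its values, and a statement that it lay higher or lower is about these tumours and carries no call.

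The ranges of treated and untreated tumours overlapped for nearly all genes. Of 22203 probe sets, 1 lay above all 16 untreated tumours in each sulindac tumour and 1 lay below them (0.0045% each). The first was Smg9, which encodes a component of nonsense-mediated RNA decay: the 6 sulindac tumours lay at 7.29, 7.31, 7.33, 7.35, 7.43 and 7.48, and the untreated tumours from 6.57 through a median of 7.07 to 7.27. The gap between the groups was thus close to the rounding of the values, and the difference was 0.35 ± 0.10 log2 units (standard error; limma adjusted p = 0.445). The second was Zfp830, a zinc finger gene with a part in splicing, with sulindac tumours between 8.68 and 8.90 and untreated tumours between 9.01 and 10.08, a difference of -0.51 ± 0.13. The sulindac tumours were also closely bunched for both genes, with SDs of 0.07 and 0.08. Both genes were singled out after their values were seen. The count of 2 probe sets outside the untreated range was 7 without sulindac Mouse_114, 6 without Mouse_124 or Mouse_129, 5 without Mouse_131 or Mouse_X, and 4 without obese Mouse_96, obese Mouse_109 or formerly obese Mouse_134.

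Among genes with a mean level of at least 6, the 10 with the smallest p in each direction are shown in the plot of the 20 genes. The choice skipped Gm and Riken names and olfactory and vomeronasal receptors. On the higher side stood Mmrn1, Ccl21a, Ccl21b, Ccl21c, Pygl, Pcif1, Ankrd22, Psph, Ccl17 and Igsf10. On the lower side stood Afg1l, Tsnax, Mien1, Pole4, Rbm45, Trp53bp1, Lman2l, Pvr, Irf3 and Zfp322a. For all 20 the mean of the sulindac group lay on the same side of each of the 3 untreated group means. Over all named genes that was so for 26.2% above and 25.2% below, and since the 20 were picked for a small p in the pooled contrast their agreement is part of the choice.

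**Figure D1:**
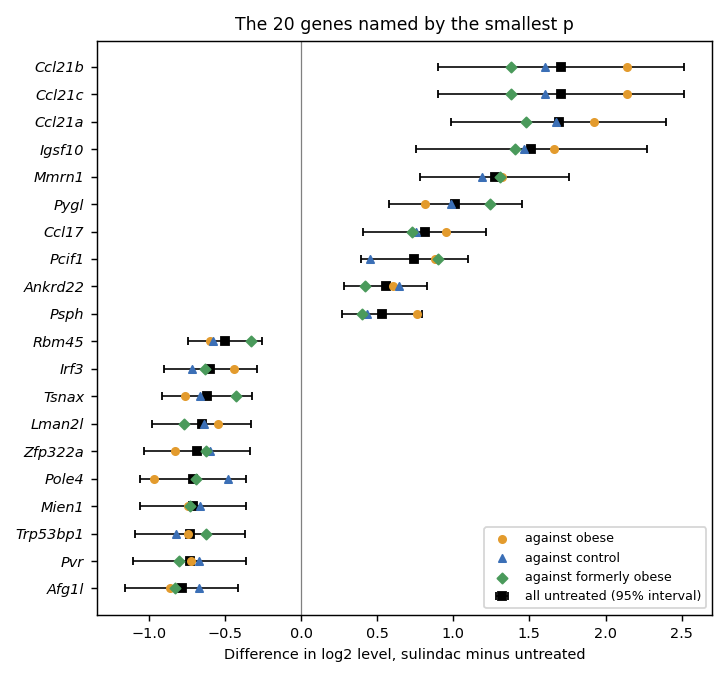
Difference in log2 level between sulindac tumours (n = 6) and untreated tumours (n = 16) for 20 genes. These are the 10 with the smallest unadjusted p in each direction among genes with a mean level of at least 6. Genes with Gm or Riken names and olfactory and vomeronasal receptors were left out. Black squares give the pooled difference with its 95% interval from the limma fit, and coloured points give the difference from each untreated group. The Ccl21 genes differed by 1.69 and 1.71 and Igsf10 by 1.51, and the lower genes lay between -0.79 and -0.50.

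Genes of lymphatic vessels led the higher side. Mmrn1, a secreted multimerin of endothelium, Ccl21a, the chemokine with which lymphatic vessels and lymph nodes draw dendritic cells and T cells, and Lyve1, the hyaluronan receptor of lymphatic endothelium, each lay above the untreated median in 6 of 6 sulindac tumours. Other genes of the same vessels, among them Prox1, Flt4, Pdpn, Reln and Stab2, did not share this. Of these, Flt4, Reln and Stab2 had a mean level under 6, so their small differences say little. Mmrn1 and Ccl21a came in by their p, and the list of 16 lymphatic genes was drawn up after these values had been seen.

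Mmrn1 stood at 6.65, 6.91, 7.39, 7.54, 7.54 and 7.79 in the sulindac tumours, against 5.05 to 6.94 with a median of 6.08 in the untreated tumours. Of the 6, 4 lay above every untreated tumour, and 15 of 16 untreated tumours lay below the lowest of the 6. The group means were 7.30 ± 0.43 with sulindac, 5.98 ± 0.56 in obese, 6.12 ± 0.68 in control and 6.0 ± 0.28 in formerly obese tumours (SD). The pooled difference of 1.27 ± 0.24 log2 units (95% interval 0.78 to 1.76), 2.41-fold on a linear scale, had a limma adjusted p of 0.295.

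Ccl21a stood at 8.48, 9.27, 9.58, 9.72, 10.41 and 10.58 with sulindac and from 6.48 through a median of 8.08 to 9.31 without it. The overlap was small: 13 of 16 untreated tumours lay below the lowest sulindac tumour. The difference was 1.69 ± 0.34 (95% interval 0.99 to 2.40; 3.23-fold; limma adjusted p = 0.295), and it was 1.92 against obese, 1.68 against control and 1.48 against formerly obese tumours. Lyve1 stood at 9.35, 9.59, 9.82, 10.14, 10.71 and 11.54 with sulindac and from 7.45 through 9.06 to 9.87 without it. Its groups overlapped more, with 3 sulindac tumours above the highest untreated tumour, and it differed by 1.20 ± 0.38 (limma adjusted p = 0.470).

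Several copies of the Ccl21 gene lie on mouse chromosome 4, and the array carries probe sets for more than 1 of them. Ccl21b and Ccl21c had identical values on every array, with a difference of 1.71 ± 0.39, so they count as 1 measurement. The predicted genes Gm10591 and Gm13304, for which RefSeq lists Ccl21b and Ccl21c among the synonyms, differed by 2.11 ± 0.47 and 2.04 ± 0.46. Gm10591 ran from 10.39 to 12.54 with a median of 11.43 in sulindac tumours and from 7.0 to 11.02 with a median of 9.73 in untreated tumours, and 5 of 6 sulindac tumours lay above every untreated one. The promoter stretches below set Gm10591 beside Ccl21a. In the RefSeq windows of assembly GRCm38.p6, compared upstream of the start sites with shifts of at most 3 bases, Gm10591 matched Ccl21a at 247 of 249 aligned bases (99.2%), and the windows of Gm10591 and Gm13304 were identical. The window of Ccl21b matched that of Ccl21a at only 81 of 247 bases (32.8%). Gaps and shifts beyond 3 bases were not tried, so whether the promoter of Ccl21b is unlike that of Ccl21a was not tested. Each line is 92 bases upstream of the start site, written 5′ to 3′ on the gene's strand, with the 2 bases that differ between this pair in capitals; Ccl21a is chr4:42774054-42774145 on the minus strand and Gm10591 is chr4:42611968-42612059 on the plus strand.
Ccl21a: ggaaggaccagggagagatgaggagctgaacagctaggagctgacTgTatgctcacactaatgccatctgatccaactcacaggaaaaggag
Gm10591: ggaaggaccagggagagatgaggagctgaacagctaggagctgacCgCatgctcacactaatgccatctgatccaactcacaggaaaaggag
Transcripts and probes of the copies were not compared here, so whether each probe set measures its own gene was not tested.

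The rest of the lymphatic list was mixed in size. Of its 16 members, 14 lay higher, 3 at an unadjusted p under 0.05 (Mmrn1, Ccl21a and Lyve1). The median difference was 0.26, against 0.00 over all named genes, of which 50.4% lay higher and 49.6% lower. At an unadjusted p under 0.05, 3.94% of all named genes lay higher and 3.6% lower. These shares are the background for the counts of each list below. Prox1, the factor that sets lymphatic identity, differed by 0.38 ± 0.44, and its 6 sulindac values spread from 12.58 to 16.08 around the untreated range of 11.43 to 14.73. The Prox1 difference was 0.02 without sulindac Mouse_X, 0.19 without Mouse_131, 0.20 without formerly obese Mouse_152, 0.59 without Mouse_124 and 0.72 without Mouse_125. Flt4, the receptor of vascular endothelial growth factor C, differed by 0.23 ± 0.18 and its ligand genes Vegfc and Vegfd by 0.33 ± 0.18 and 0.31 ± 0.23. Without sulindac Mouse_114 Vegfc differed by 0.15 and Vegfd by 0.48, and without Mouse_X Vegfd by 0.00. Pdpn, which encodes podoplanin, differed by -0.20 ± 0.28, Reln by 0.02 ± 0.17 and Stab2 by 0.00 ± 0.13. Nrp2, a co-receptor of these ligands, differed by 0.23 ± 0.28, Sema3d by 0.21 ± 0.17, Foxc2, a factor of lymphatic valves, by 0.30 ± 0.38, Itga9 by -0.06 ± 0.28, Angpt2 by 0.32 ± 0.59 and Tbx1 by 0.23 ± 1.09. Foxc2 was -0.24 without Mouse_X and 0.61 without Mouse_125. Angpt2 ran from 0.16 to 0.55 when single tumours were left out, with the lowest value without Mouse_X and the highest without Mouse_125. Pecam1, a gene of all endothelium, differed by 0.15 ± 0.28 and Cdh5, the cadherin of endothelial junctions, by -0.06 ± 0.36. The endothelial list had 15 of 19 members higher with a median of 0.23, which was 0.04 against obese, 0.19 against control and 0.44 against formerly obese tumours, and the mean level of its members ran from 7.90 to 8.93 in sulindac tumours and from 7.61 to 8.95 in untreated ones. The part of endothelial content in the 3 lymphatic genes was not tested.

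**Figure D2:**
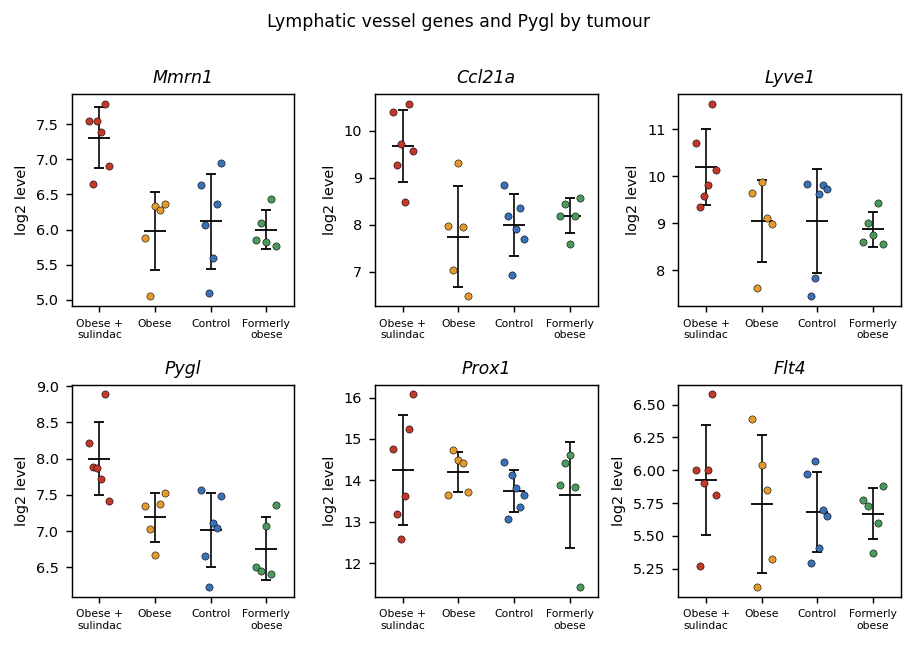
log2 level of 5 lymphatic genes and of Pygl in each tumour, by group, with the group mean and SD as bars. Mmrn1, Ccl21a, Lyve1 and Pygl were shifted upward in the sulindac group, with 4, 4, 3 and 5 of its 6 tumours above every untreated tumour, whereas Prox1 and Flt4 overlapped throughout most of their range.

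Pygl, the liver form of glycogen phosphorylase, which releases glucose from glycogen, stood at 7.42, 7.72, 7.87, 7.89, 8.22 and 8.89 with sulindac and from 6.23 through 7.06 to 7.57 without it. Of the 6 sulindac tumours, 5 exceeded every untreated tumour. The difference was 1.01 ± 0.21 (95% interval 0.58 to 1.45; limma adjusted p = 0.295). Igsf10, a gene of the immunoglobulin superfamily, was split within the treated group: Mouse_114 and Mouse_124 lay at 5.98 and 6.68, within the untreated range of 5.53 to 7.31, and the other tumours lay at 8.41, 8.85, 8.86 and 9.35, all above it. Its difference was 1.51 ± 0.37 with all 6 tumours and 1.92 without Mouse_114. Ccl17, a chemokine of dendritic cells that attracts T cells, differed by 0.81 ± 0.19, Pcif1, an enzyme that methylates the cap of messenger RNA, by 0.74 ± 0.17, Ankrd22, an ankyrin repeat gene, by 0.56 ± 0.13 and Psph, whose enzyme makes serine from phosphoserine, by 0.53 ± 0.13.

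The genes on the lower side differed by less. Pole4, which encodes an accessory subunit of DNA polymerase epsilon, stood at 11.74, 11.74, 11.76, 11.78, 11.83 and 11.99 with sulindac, and 15 of the 16 untreated tumours lay above all of these, up to 13.39. The exception was obese Mouse_96 at 11.82. The difference was -0.71 ± 0.17 (limma adjusted p = 0.295), and -0.97 against obese tumours alone. Trp53bp1, which encodes a repair factor for broken DNA, lay below every untreated tumour in 5 of 6 sulindac tumours and at 7.72 in Mouse_114, and differed by -0.73 ± 0.17. Afg1l, a mitochondrial ATPase gene, differed by -0.79 ± 0.18, Tsnax, a partner of translin in RNA cleavage, by -0.62 ± 0.14, and the RNA-binding gene Rbm45 by -0.50 ± 0.12. Pvr, a surface ligand for receptors of natural killer and T cells, differed by -0.73 ± 0.18 and Irf3, the interferon regulatory factor, by -0.60 ± 0.15. Mien1, a gene named for its part in cell migration, differed by -0.71 ± 0.17, Lman2l, a cargo receptor of the secretory pathway, by -0.65 ± 0.16 and the zinc finger gene Zfp322a by -0.69 ± 0.17.

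The widest differences among the members of the lists were those of a cytokine and a growth factor, Il11 and Ereg, both lower with sulindac. Il11 is a cytokine of the interleukin 6 family, made by tumour fibroblasts among other cells, and Ereg encodes the EGF receptor ligand epiregulin. The stromelysin genes Mmp10 and Mmp3, the collagenase gene Mmp13 and Plau, the urokinase gene, lay lower too, while Mmp2, a gelatinase of fibroblasts, lay higher. Il11, Ereg, Mmp10, Plau and Mmp2 were named by the rule; Mmp13 and Mmp3 were added after their values were seen.

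Promoters of Il11, Ereg, Mmp10, Mmp13, Mmp3 and Plau were looked up for the AP-1 motif, TGACTCA or its reverse complement TGAGTCA. Fos and Jun proteins bind this element, which is known from stromelysin and collagenase genes. The search was chosen after the values were seen, and promoters of Mmp2 and of the other lower genes were not looked at singly. The RefSeq promoter table held Il11, Mmp10, Mmp13 and Mmp3 but not Ereg or Plau. Each of the genes held had 1 match in the 250 bases before a start site. Il11 has a pair of listed start sites and the match stood before 1 of them. Over all promoters in the table, 1466 of 32851 (4.46%) held the motif. That share counts promoters and not genes, and the genes looked up were picked by their values, so no enrichment is read from it. The stretches of 120 bases below (GRCm38.p6, 5′ to 3′ on the gene's strand, motif in capitals) lie at chr7:4778142-4778261 on the minus strand for Il11 and at chr9:7502222-7502341 for Mmp10, chr9:7272394-7272513 for Mmp13 and chr9:7445702-7445821 for Mmp3, the last 3 on the plus strand.
Il11: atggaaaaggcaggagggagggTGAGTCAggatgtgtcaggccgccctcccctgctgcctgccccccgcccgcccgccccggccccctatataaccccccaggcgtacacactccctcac
Mmp10: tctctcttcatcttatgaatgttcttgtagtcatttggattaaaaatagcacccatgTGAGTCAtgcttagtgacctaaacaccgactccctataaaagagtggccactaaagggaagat
Mmp13: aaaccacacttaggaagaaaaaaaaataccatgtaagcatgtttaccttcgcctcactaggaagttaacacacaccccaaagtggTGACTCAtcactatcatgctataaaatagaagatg
Mmp3: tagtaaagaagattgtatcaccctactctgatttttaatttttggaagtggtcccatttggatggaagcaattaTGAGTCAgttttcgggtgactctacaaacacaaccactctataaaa
The motif stood 98 bases before the start site in Il11, 63 in Mmp10, 35 in Mmp13 and 46 in Mmp3. Mmp10, Mmp13 and Mmp3 lie close together on chromosome 9 and belong to a single family, so their promoters are not independent of each other. A match describes these letters and says nothing of what binds there in the tumours.

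Il11 stood at 4.99, 5.50, 5.64, 5.74, 7.2 and 9.40 in the sulindac tumours and from 5.80 through a median of 9.63 to 12.85 in the untreated tumours. All 6 lay below the untreated median and 4 lay below every untreated tumour; the value of 9.40 was that of Mouse_114. The difference was -2.78 ± 0.84, 6.86-fold lower on a linear scale (95% interval -4.52 to -1.04; limma adjusted p = 0.458), and it was -3.60 against obese, -2.63 against control and -2.10 against formerly obese tumours. Without Mouse_114 it was -3.38. Ereg stood at 7.80, 8.53, 10.49, 10.68, 10.77 and 11.76 with sulindac and from 9.84 through 12.50 to 16.09 without it. All 6 lay below the untreated median and 11 of 16 untreated tumours lay above all 6, for a difference of -2.41 ± 0.72, 5.30-fold lower (95% interval -3.89 to -0.92; limma adjusted p = 0.458).

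Mouse_114 was the highest of the sulindac tumours for Mmp10, Mmp13, Mmp3 and Plau. Mmp10 stood at 10.82, 11.42, 11.65, 12.04 and 13.29 in the other sulindac tumours and at 15.11 in Mouse_114, against 12.21 to 15.81 in untreated tumours. The difference was -1.53 ± 0.53 (limma adjusted p = 0.521) and -2.07 without Mouse_114. Mmp13 stood at 10.08, 10.30, 10.32, 11.70, 11.92 and 15.28, against 10.13 to 16.39 with a median of 13.93 without sulindac. It differed by -1.93 ± 0.79 (limma adjusted p = 0.616), or -2.67 without Mouse_114. Mmp3 stood at 5.6, 5.68, 6.14, 6.42, 7.08 and 9.81, against 6.01 to 10.25, and differed by -1.24 ± 0.64, or -1.85 without Mouse_114. Plau stood at 8.74, 9.03, 9.42, 9.50, 9.91 and 10.66, against 9.13 to 12.26, and differed by -1.05 ± 0.39. Mmp2 ran the other way, from 10.90 to 12.13 with sulindac and from 9.43 to 11.37 without it, a difference of 0.69 ± 0.22.

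**Figure D3:**
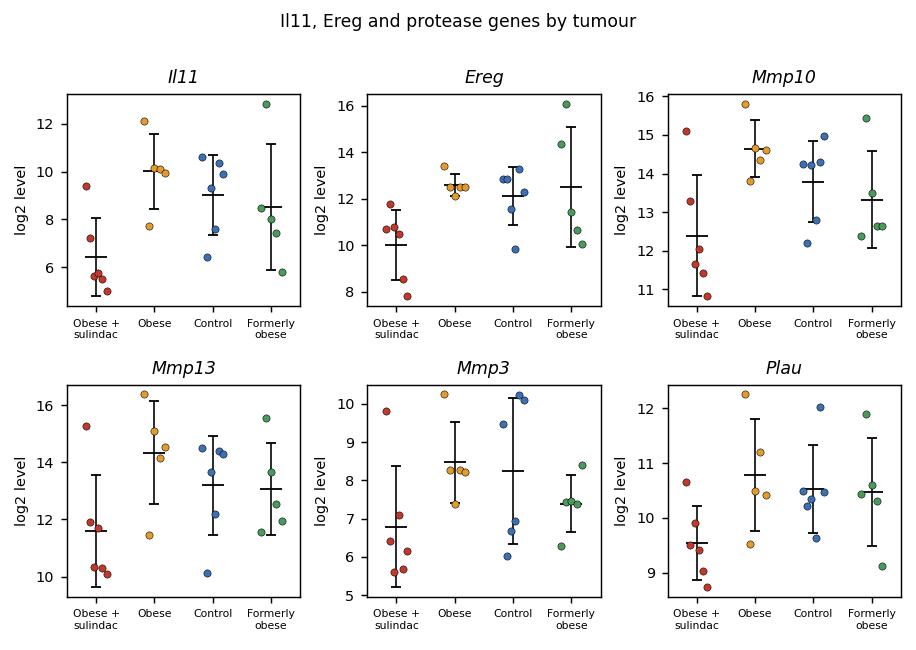
log2 level of Il11, Ereg, Mmp10, Mmp13, Mmp3 and Plau in each tumour, by group, with the group mean and SD as bars. Sulindac Mouse_114 is the highest red point for Il11 at 9.40, Mmp10 at 15.11, Mmp13 at 15.28, Mmp3 at 9.81 and Plau at 10.66, and the other sulindac tumours lie mostly under the untreated means.

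The lists around these genes were less uniform. Of 27 measured members of the matrix remodelling list, 17 lay lower. At an unadjusted p under 0.05, 4 lay lower and 1 higher, against 3.6% and 3.94% of all named genes. The list median was -0.29, and it was -0.51 against obese but -0.04 against control and -0.05 against formerly obese tumours. The EGF receptor and MAPK feedback list had 18 of 26 lower and a median of -0.16; besides Ereg it named Nrg4 at -0.77 ± 0.45 and Tgfa at 0.38 ± 0.24, both ligand genes. Tgfa was 0.17 without Mouse_X and 0.58 without Mouse_124. Fibroblast markers lay higher in 19 of 25 cases, 5 of them at an unadjusted p under 0.05, against 3.94% of all named genes, with a median of 0.24 that was 0.09 against obese, 0.17 against control and 0.48 against formerly obese tumours. The mean level of the fibroblast markers was 8.68 to 9.57 in sulindac and 8.07 to 9.27 in untreated tumours. Col6a1, a chain of collagen VI, stood at 9.16, 9.75, 10.51, 10.83, 11.06 and 11.57 with sulindac and from 9.14 to 10.42 without it, a difference of 0.86 ± 0.26 (limma adjusted p = 0.458), and the low values of 9.16 and 9.75 were again Mouse_124 and Mouse_114. Twist2, a mesenchymal transcription factor, differed by 0.88 ± 0.27, and by 0.49 without Mouse_114. Smooth muscle markers lay higher in 16 of 17 cases with a median of 0.20 (0.32 against obese, 0.32 against control, 0.12 against formerly obese), among them the contractile genes Lmod1 at 0.51 ± 0.20 and Actg2 at 0.68 ± 0.30, with mean levels of 8.20 to 9.45 against 8.04 to 10.08. What share of the Il11 and protease differences goes with tissue makeup was not tested.

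Heat shock genes lay lower and cold-inducible genes higher, with a divided treated group. Of 19 measured genes of the heat shock list, 18 lay lower, 7 at an unadjusted p under 0.05, against 3.6% of all named genes, and the median difference was -0.33. The mean level of its members ran from 11.03 to 12.34 in sulindac and from 11.21 to 12.60 in untreated tumours. This list was drawn up after the values were seen; Hspa1a alone had been named by the rule. Chaperones of this kind keep proteins folded and are induced by heat and other stress, whereas Cirbp and Rbm3 encode RNA-binding proteins induced by mild cold.

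Hsph1, a chaperone gene of the HSP110 family, stood at 10.57, 10.58, 10.67 and 11.19 in 4 sulindac tumours and at 13.38 and 14.08 in Mouse_124 and Mouse_114. The untreated tumours ran from 11.86 through a median of 13.33 to 15.14, so 4 sulindac tumours lay below all of them and the other two lay among them. The difference was -1.87 ± 0.51 (95% interval -2.93 to -0.80; limma adjusted p = 0.443). Cirbp showed the mirror image: Mouse_124 and Mouse_114 lay at 11.66 and 11.74, and the others at 14.07, 14.11, 14.24 and 15.13, above the untreated range of 10.63 to 13.09. Its difference was 1.52 ± 0.44 (limma adjusted p = 0.445). Over the 16 untreated tumours the levels of Cirbp and Hsph1 had a Pearson r of -0.513 (permutation p = 0.044) and a Spearman rho of -0.406 (permutation p = 0.119). This was the only relation computed, on a pair picked after its values were seen. Without the 2 tumours farthest from the median of Cirbp the r was -0.356, so it rests in part on those tumours.

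The other chaperone genes had smaller differences. Hsp90aa1, the inducible cytosolic HSP90, stood at 15.45, 15.50, 15.95, 16.07, 16.17 and 16.69 with sulindac and from 15.90 to 17.39 without it, a difference of -0.54 ± 0.19. Hspd1, the mitochondrial HSP60, ran from 13.68 to 15.08 with sulindac and from 14.47 to 15.62 without it and differed by -0.56 ± 0.16, and its partner Hspe1 by -0.24 ± 0.16. Chordc1, an HSP90 partner, had 4 sulindac tumours between 10.52 and 10.72, below every untreated tumour, and Mouse_124 and Mouse_114 at 11.53 and 11.70, for -0.71 ± 0.21. The inducible HSP70 genes Hspa1a and Hspa1b differed by -1.32 ± 0.62 and -1.03 ± 0.58, with the untreated range stretched upward to 14.02 and 14.13 by formerly obese Mouse_134. Hspb1 differed by -1.33 ± 0.63, Ahsa1 by -0.33 ± 0.14, Stip1 by -0.32 ± 0.21, Fkbp4 by -0.33 ± 0.23, Cacybp by -0.30 ± 0.17, Hspa4l by -0.27 ± 0.20, Serpinh1 by -0.52 ± 0.34, Cryab by -0.20 ± 0.33, Hspa4 by -0.17 ± 0.13, Dnajb1 by -0.17 ± 0.21 and Bag3 by -0.16 ± 0.22. Without Mouse_114 Stip1 was -0.50 and Fkbp4 -0.51, and without Mouse_125 Fkbp4 was -0.17. Hspb8 at 0.39 ± 0.42 was the only measured member of the list that lay higher; it was 0.20 without Mouse_114, 0.23 without obese Mouse_109 and 0.58 without obese Mouse_96. Rbm3 stood at 17.57 to 18.28 with sulindac and 16.27 to 18.43 without it, a difference of 0.49 ± 0.20.

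**Figure D4:**
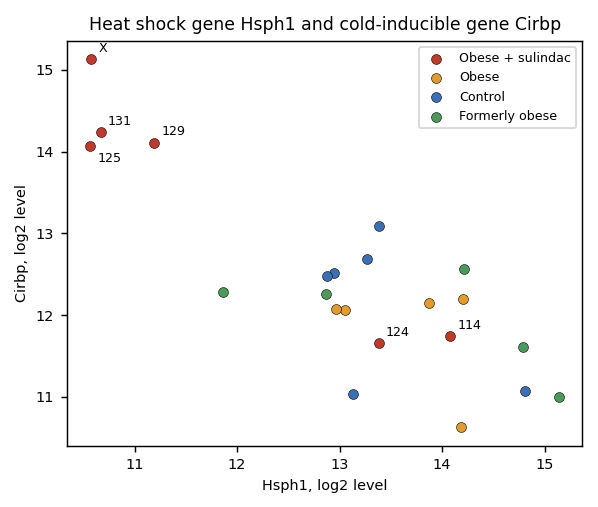
log2 level of Cirbp against that of Hsph1, with a point per tumour coloured by group and the mouse number beside each sulindac tumour. The sulindac tumours Mouse_125, Mouse_129, Mouse_131 and Mouse_X stand apart at Cirbp levels of 14.07 to 15.13 and Hsph1 levels of 10.57 to 11.19, while Mouse_114 and Mouse_124 lie among the untreated tumours.

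Immediate early genes, which respond within minutes to growth factors and to the cutting and digestion of tissue, were near the level of obese and control tumours and below that of formerly obese ones. The list of immediate early and dissociation genes had 20 of 26 members lower and a median of -0.20, with -0.03 against obese, 0.03 against control and -0.74 against formerly obese tumours. Its members had a mean level of 9.36 to 10.49 in sulindac and 9.29 to 12.16 in untreated tumours. Klf4, an early response gene that also marks differentiated colon epithelium, lay higher by 0.95 ± 0.43. The labels used here give no time to freezing, and the part of handling in the heat shock values was not tested.

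The prostaglandin genes, nearest to the known action of the drug, had no common direction. Of 33 measured members of the prostaglandin and leukotriene list, 18 lay higher and 15 lower, 3 and 1 at an unadjusted p under 0.05, with a median of 0.03. Ptgs2, the inducible cyclooxygenase, lay between 7.68 and 9.01 in 5 sulindac tumours and at 11.69 in Mouse_114, against 8.21 to 12.74 with a median of 9.72 in untreated tumours. All but Mouse_114 lay below the untreated median; the difference was -0.98 ± 0.61 (95% interval -2.24 to 0.28; limma adjusted p = 0.780), and -1.51 without Mouse_114. Ptges, the inducible prostaglandin E synthase, differed by -0.50 ± 0.27. Hpgd differed by 0.03 ± 0.81, with 1.40 against obese and -0.97 against formerly obese tumours, and under quantile normalization or median centring the pooled value was -0.01.

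Of the prostaglandin E2 receptors, Ptger2 stood at 5.33, 5.90, 6.12, 6.57, 6.83 and 6.86 with sulindac and from 5.02 through 5.70 to 6.34 without it. The groups overlapped, with 3 sulindac tumours above the untreated range, and the difference was 0.59 ± 0.19 (95% interval 0.19 to 0.98; limma adjusted p = 0.497). Ptger4 differed by 0.24 ± 0.27. Ptgr1, a reductase that inactivates leukotriene B4 and prostaglandin metabolites, ran from 10.38 to 12.38 with sulindac and from 8.48 to 11.96 without it, a difference of 1.12 ± 0.46 (limma adjusted p = 0.616). Ptgdr, the prostaglandin D2 receptor, differed by -0.37 ± 0.15 at levels of 3.81 to 5.27 across all tumours.

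Genes of drug handling were mostly near the untreated level. In the sulindac and xenobiotic metabolism list 29 of 40 members lay higher, with 1 higher and 2 lower at an unadjusted p under 0.05 and a median of 0.12. Cyp2b10, a cytochrome gene induced through the nuclear receptor CAR, stood at 8.13, 8.61, 8.74, 9.69, 9.94 and 10.88 with sulindac and from 6.34 through 7.60 to 9.98 without it. All 6 lay above the untreated median and 1 above every untreated tumour, for a difference of 1.46 ± 0.52 (limma adjusted p = 0.533). Cyp1a1, the target of the aryl hydrocarbon receptor, differed by -0.25 ± 0.10 at 3.77 to 4.50 in all tumours. Abcb1a, which encodes a drug efflux pump, differed by -1.43 ± 0.66. Msra, which encodes a methionine sulfoxide reductase that can act on sulindac, and Aox1, the aldehyde oxidase, differed by 0.12 ± 0.26 and 0.19 ± 0.36.

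The routes proposed apart from the cyclooxygenases gave few values outside the spread. Among 21 polyamine genes 11 lay higher, with a median of 0.02. Of these, 2 had an unadjusted p under 0.05, against 3.94% of all named genes. Slc7a1, the transporter that brings in arginine and lysine, stood at 10.24, 10.30, 10.50, 10.51, 10.70 and 10.88 with sulindac and from 9.16 to 10.44 without it; 14 of 16 untreated tumours lay below all 6, and the difference was 0.63 ± 0.15 (limma adjusted p = 0.295). Dhps, whose enzyme uses spermidine to make hypusine, differed by 0.36 ± 0.12, and Sat2 by 0.81 ± 0.41, or 0.47 without Mouse_131 and 1.22 without Mouse_124. Sat1, the spermidine acetyltransferase reported as a sulindac target, differed by -0.09 ± 0.23 and Odc1, the ornithine decarboxylase, by -0.09 ± 0.21. Of 30 genes for cyclic nucleotide phosphodiesterases and cGMP signalling 20 lay higher, none at an unadjusted p under 0.05, with a median of 0.10. Pde5a and Pde10a, the phosphodiesterases linked to sulindac sulfide, differed by -0.33 ± 0.25 and -0.51 ± 0.54 (Pde10a by -0.29 without obese Mouse_113 and -0.30 without formerly obese Mouse_140), Pde8b by -0.53 ± 0.29, Pde1a by 0.49 ± 0.27, or 0.28 without Mouse_125, and Vasp, a substrate of the cGMP kinase, by 0.35 ± 0.20. In the apoptosis and p53 list 23 of 39 lay higher with a median of 0.02. Bmf, a BH3-only death gene, differed by 0.66 ± 0.29, or 0.30 without Mouse_X, Apaf1 of the apoptosome by 0.52 ± 0.25, Casp8 by -0.35 ± 0.18, or -0.23 without Mouse_125, Cdkn1a by -0.04 ± 0.20 and Bcl2l1 by -0.08 ± 0.16.

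WNT targets lay mostly lower and cell cycle genes mostly higher. Of 26 WNT target and stem cell genes 19 lay lower, 2 at an unadjusted p under 0.05, with a median of -0.14; against formerly obese tumours the median was 0.08. Sox9, a progenitor factor of the crypt and a WNT target, stood at 14.50, 14.93, 15.05, 15.09, 15.47 and 15.49 with sulindac and from 14.41 through 15.86 to 16.41 without it. All 6 lay below the untreated median and 13 of 16 untreated tumours lay above all 6, for a difference of -0.64 ± 0.20 (limma adjusted p = 0.468). Cd44, the hyaluronan receptor, differed by -0.47 ± 0.19, Mmp7 by -0.76 ± 0.44, or -0.29 without Mouse_X, Lgr5, the stem cell marker, by -0.58 ± 0.72 and Myc by -0.21 ± 0.19. Lgr5 was -0.31 without Mouse_129, -0.32 without Mouse_125, -0.35 without Mouse_131 and -0.89 without Mouse_114. It depended more on the untreated groups, at -0.02 without the obese group and -1.25 without the formerly obese group. Foxq1, a forkhead factor added after its values were seen, ran from 9.10 to 10.18 with sulindac and from 9.11 to 11.22 without it and differed by -0.69 ± 0.19.

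Of 40 cell cycle genes 30 lay higher, with a median of 0.17. At an unadjusted p under 0.05, 2 lay higher and 1 lower, near the shares of 3.94% and 3.6% of all named genes. Mki67, the proliferation marker, stood at 14.35, 14.45, 14.48, 14.74, 14.76 and 14.77 with sulindac, a narrow band inside the untreated range of 13.01 to 15.01. All 6 lay above the untreated median of 14.04, and the difference was 0.53 ± 0.20 (95% interval 0.13 to 0.94; limma adjusted p = 0.549). Rrm1, a subunit of ribonucleotide reductase, differed by 0.47 ± 0.20 and Ccne2, a cyclin of the G1/S step, by -0.49 ± 0.23, or -0.32 without Mouse_131.

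Genes of protein folding in the endoplasmic reticulum and of fat use lay lower in part. In the unfolded protein and integrated stress response list 28 of 37 lay lower, against 49.6% of all named genes. At an unadjusted p under 0.05, 6 lay lower and 1 higher, against 3.6% and 3.94% of all named genes. The list median was -0.16, and it was -0.20 against obese, -0.04 against control and -0.22 against formerly obese tumours. Dnajb9, a chaperone partner induced by IRE1 signalling, stood at 11.13, 11.70, 11.75, 11.86, 11.96 and 12.04 with sulindac and from 11.56 through 12.36 to 13.19 without it; all 6 lay below the untreated median, for -0.64 ± 0.20 (limma adjusted p = 0.462). Canx, the lectin chaperone calnexin, differed by -0.24 ± 0.10 and Ppp1r15a, a phosphatase subunit that restores translation, by 0.40 ± 0.15. Xbp1, the factor downstream of IRE1, depended on the group it was set against: -0.68 against obese, -0.32 against formerly obese and 0.02 against control tumours.

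Of 40 genes of fatty acid oxidation and PPAR signalling 22 lay lower, with a median of -0.05. Of these, 3 had an unadjusted p under 0.05, against 3.6% of all named genes. Angptl4, a PPAR target that inhibits lipoprotein lipase, stood at 6.16, 6.91, 6.95, 7.12, 7.29 and 7.70 with sulindac and from 6.67 through 7.76 to 8.67 without it. All 6 lay below the untreated median, and the difference of -0.72 ± 0.20 (limma adjusted p = 0.443) was -0.88 against obese, -1.0 against control and -0.28 against formerly obese tumours. Acaa1b, a peroxisomal thiolase, ran from 6.13 to 6.72 with sulindac, below 14 of 16 untreated tumours, and differed by -0.61 ± 0.18. Cpt2, of mitochondrial fatty acid import, differed by -0.35 ± 0.16, or -0.22 without Mouse_131. In the hypoxia and glycolysis list 18 of 25 lay lower with a median of -0.14; P4ha1 and P4ha2, which hydroxylate collagen, differed by -0.68 ± 0.24 and -0.77 ± 0.36 and Pgam1 of glycolysis by -0.28 ± 0.15. Cholesterol synthesis genes lay higher in 21 of 23 cases with a median of 0.15, among them Fdps at 0.42 ± 0.18, Fdft1 at 0.32 ± 0.16 and Hsd17b7 at 0.54 ± 0.28; without Mouse_129 the last pair were 0.18 and 0.36. In the bile acid list 8 of 14 lay higher with a median of 0.09; the bile acid receptor Nr1h4 differed by 1.0 ± 0.59, being 1.60 against control and -0.05 against formerly obese tumours, Gpbar1 by -0.17 ± 0.14 and Slc51b by -0.30 ± 0.27, or -0.19 without formerly obese Mouse_134.

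Inflammatory genes showed no shared shift apart from Il11. Of 37 members of the cytokine and NF-kB list 19 lay higher, 1 higher and 2 lower at an unadjusted p under 0.05, with a median of 0.00. Ccl4, a chemokine of macrophages and T cells, differed by 1.09 ± 0.41, or 0.65 without Mouse_114, and Ccl2, which attracts monocytes, by -0.70 ± 0.32. Il6 differed by -0.75 ± 0.46, Il1b by -0.08 ± 0.71 and Tnf by -0.14 ± 0.41, and Il1b and Tnf changed sign when the obese group was left out. Genes of interferon response and antigen presentation lay higher in 24 of 32 cases with a median of 0.24, which was 0.41 against obese, 0.57 against control and -0.05 against formerly obese tumours. H2-Aa, a class II antigen-presenting chain, stood at 12.49, 12.64, 12.99, 13.27, 13.55 and 13.87 with sulindac and from 10.34 through 12.02 to 13.69 without it. All 6 lay above the untreated median, and the difference was 1.03 ± 0.42 (limma adjusted p = 0.615). Its partner H2-Ab1 differed by 0.74 ± 0.36 and the peptide transporter Tap1 by 1.06 ± 0.59. Antimicrobial genes lay higher in 13 of 24 cases with a median of 0.07, Retnlb at 1.44 ± 0.75, Ltf at -0.64 ± 0.52 and Pigr at 0.54 ± 0.47, or 0.33 without Mouse_129.

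**Figure D5:**
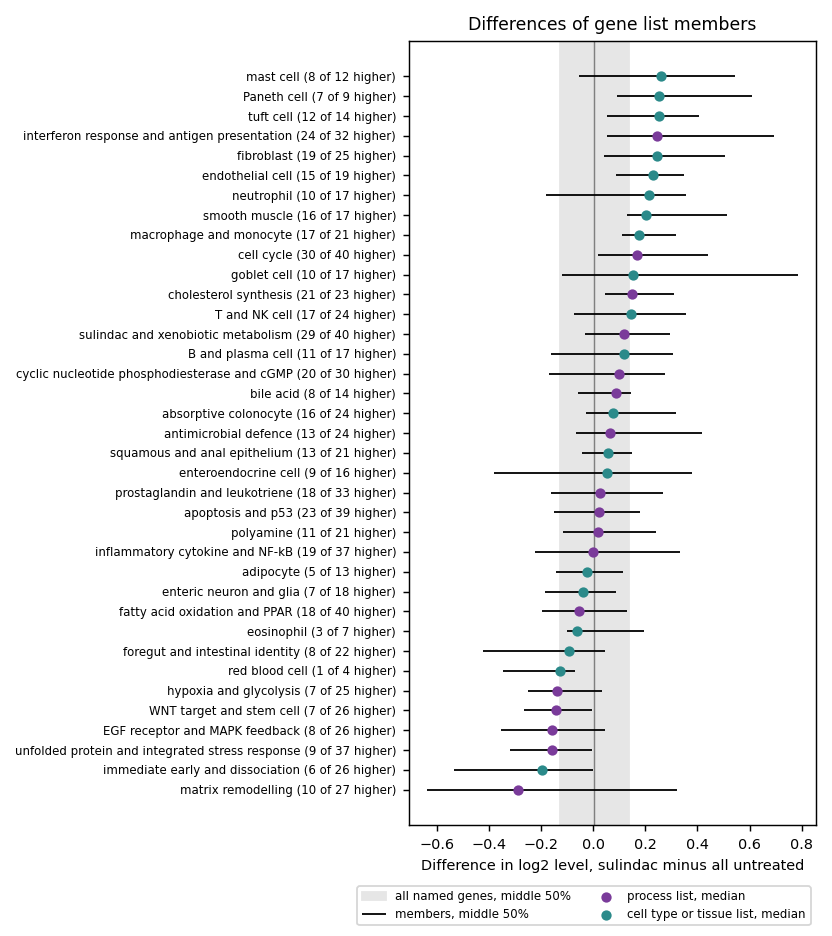
Differences of the members of 37 gene lists between sulindac (n = 6) and untreated tumours (n = 16), in log2 units; a dot is the median of a list, a line spans its middle 50%, and the grey band is the middle 50% of all named genes, -0.13 to 0.14. Medians run from -0.29 for matrix remodelling to 0.26 for mast cell markers, and the line of each list reaches into the grey band.

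Marker lists of immune cells mostly leaned higher in the pooled comparison, and much less so against the obese group, which shared the diet. Macrophage and monocyte markers lay higher in 17 of 21 cases with a median of 0.18, which was -0.02 against obese, 0.35 against control and 0.39 against formerly obese tumours, C1qc of complement at 0.60 ± 0.22 and Trem2 at 0.43 ± 0.23. T and NK cell markers lay higher in 17 of 24 cases with a median of 0.15 (0.09 against obese, 0.13 against control, 0.23 against formerly obese), Cd3e of the T cell receptor at 0.91 ± 0.54 and Icos at 0.88 ± 0.57. Icos was 0.53 without Mouse_125 and 1.33 without Mouse_X. B and plasma cell markers lay higher in 11 of 17 cases with a median of 0.12 (0.03 against obese, 0.40 against control, -0.01 against formerly obese), among them Tnfrsf17 at 0.33 ± 0.19, or 0.15 without Mouse_125. Neutrophil markers lay higher in 10 of 17 cases with a median of 0.21 (-0.08 against obese, 0.27 against control, 0.40 against formerly obese), Stfa2l1 at 1.01 ± 0.34 and Cxcr1 at 0.35 ± 0.13. Eosinophil markers lay higher in 3 of 7 cases, Siglecf at 0.35 ± 0.13 and Alox15 at -0.77 ± 0.63, which was -0.42 without Mouse_125 and -1.39 without Mouse_131. The mean levels ran for T and NK cells at 5.70 to 7.03 against 5.62 to 6.98 and for macrophages at 9.13 to 10.59 against 8.96 to 10.57.

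Mast cell markers lay higher in 8 of 12 cases with a median of 0.26, but the median was -0.11 against obese tumours and 0.39 and 0.34 against control and formerly obese ones. A single tumour stood far from the rest. Hdc, the histamine-making decarboxylase, stood at 9.02, 11.02, 11.03, 11.22 and 11.37 in 5 sulindac tumours and at 17.08 in Mouse_114, against 7.32 to 12.40 without sulindac. Its difference was 1.93 ± 0.87 with Mouse_114 and 0.87 without it. Mcpt1, a mucosal mast cell protease, differed by 1.33 ± 0.85, or 0.63 without Mouse_131.

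Markers of the epithelial lineages varied widely within each group. Absorptive colonocyte markers lay higher in 16 of 24 cases with a median of 0.08, but of 0.57 against obese and -0.49 against formerly obese tumours; Vil1 differed by -0.46 ± 0.23, or -0.23 without Mouse_X, and the sodium exchanger gene Slc9a3 by -0.45 ± 0.38. Goblet cell markers lay higher in 10 of 17 cases with a median of 0.15 (0.36 against obese, 0.17 against control, -0.03 against formerly obese), Clca1 at 1.33 ± 1.03. Clca1 was 0.65 without Mouse_X, 0.83 without Mouse_131 and 2.24 without Mouse_114. Tuft cell markers lay higher in 12 of 14 cases with a median of 0.25 (0.26 against obese, 0.23 against control, 0.17 against formerly obese), Plcb2 at 0.42 ± 0.21, or 0.24 without Mouse_131, and Pou2f3, the lineage factor, at 0.70 ± 0.40. The Pou2f3 value rested on Mouse_131 at 8.49 and was 0.06 without it. Enteroendocrine markers lay higher in 9 of 16 cases with a median of 0.05 (0.27 against obese, 0.06 against control, -0.39 against formerly obese), the peptide hormone gene Pyy at 1.49 ± 0.65 and Isl1 at 1.61 ± 0.89, or 1.07 without Mouse_X. Paneth cell markers lay higher in 7 of 9 cases with a median of 0.25 (0.16 against obese, 0.47 against control, 0.16 against formerly obese), Defa24 at 0.61 ± 0.68. Defa24 was 0.18 without Mouse_124, 0.30 without Mouse_125, 0.92 without Mouse_129 and 0.95 without Mouse_114. Lists for tissue at the edge of a dissection were near the median of all genes: squamous and anal epithelium at 0.06 (Lor 0.22 ± 0.13, Sprr1b -0.17 ± 0.14), adipocytes at -0.03 (Retn -0.39 ± 0.14, Cidea -0.31 ± 0.18) and enteric neurons and glia at -0.04 (Gfra1 0.90 ± 0.35, or 0.58 without Mouse_131, Snap25 -0.72 ± 0.41). Red blood cell markers, with only 4 of 10 listed genes measured, had a median of -0.13 (Alas2 -0.90 ± 0.48, Epb42 -0.16 ± 0.13). The median for foregut and intestinal identity was -0.09 (Gkn1 -0.45 ± 0.21, Foxa3 -0.53 ± 0.25).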

How the data were processed

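RNA of 22 colon tumours was measured on Clariom S arrays after TRIzol extraction, per the labels' protocols. The deposited values are log2 levels for 22203 probe sets on each array. The tool was Transcriptome Analysis Console 4.0, per the submitters' processing notes. How probes were summarized, corrected and normalized, and which log base was used, is not given in the sources used here. The range of 3.34 to 19.49 was read as base 2. Such values are relative to the rest of the array and say nothing of background for a single probe set. Gene symbols came from the platform annotation: 19572 probe sets carried 1, 2631 are unnamed here, 55 genes had several and were represented by the brightest, and 254 probe sets repeated another's values.

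Means of the 4 groups were fitted to all arrays with limma 3.58.1 in R 4.3.3 (lmFit, eBayes; no filter), and sulindac was set against the average of the 3 untreated means. Calls needed an adjusted p under 0.05 (Benjamini-Hochberg over all probe sets, two-sided); every adjusted p quoted is from limma. The value after ± is a standard error beside a difference and an SD beside a mean. The script was tested on simulated data. Titles number the mice separately, except Mouse_X; no number is shared between groups, so nothing pairs them, and the labels name no batch. Alternatives were a 2-group fit, quantile normalization, median centring, a minimum mean level of 6, a trended robust variance, array weights, leaving out each untreated group, and leaving out each tumour.

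Named genes were, per direction, the 10 with the smallest p at a mean level of at least 6 (0 passed the threshold) and 3 at any level, 3 per process list, 2 per cell type list and 28 fixed genes, of which 5 were not matched and are not analysed here. The rule skipped Gm and Riken names and olfactory and vomeronasal receptors. Of 909 list entries 822 were matched. The comparison, the genes and the lists were chosen with earlier results of these data known. Lists are described by counts and medians beside all 19505 named genes, with no test. Promoters came from RefSeq windows of GRCm38.p6, from 250 bases before the start.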

Additional observations from a re-analysis of the deposited data

Results flagged for a closer look

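In 37 genes shown tumour by tumour, each of the 4 groups was searched for a tumour whose gap to its neighbour was a large part of the group's range. Of 148 combinations 19 were found, and chance gives about 1 in 20.

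Sulindac Mouse_114 accounted for 4 of the combinations found, each the highest of its group: Mmp13 at 15.28 beside 11.92 for the next, Mmp3 at 9.81 beside 7.08, Ptgs2 at 11.69 beside 9.01 and Hdc at 17.08 beside 11.37. The other sulindac tumours found were Mouse_129, lowest for Dnajb9 at 11.13, and Mouse_124, highest for Pole4 at 11.99.

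Among control tumours, Mouse_26 was lowest for the Ccl21 family, at 7.04 for Ccl21b, 7.50 for Gm10591 and 7.26 for Gm13304. Mouse_30 was highest for Plau at 12.03, Mouse_27 for Hsph1 at 14.81, Mouse_32 for Hspd1 at 15.26 and for Pole4 at 12.60, and Mouse_20 was lowest for Rbm3 at 16.27. Among obese tumours, Mouse_101 was lowest for Cirbp at 10.63, Mouse_113 highest for Chordc1 at 12.51 and lowest for Smg9 at 6.57, and Mouse_96 highest for Cyp2b10 at 9.52. Formerly obese Mouse_140 was highest for Col6a1 at 10.14.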

How the results depend on the processing

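No paired analysis was possible because the groups share no mouse numbers. The count of called genes was 0 under all 9 other settings and ran from 0 to 2 when single tumours were left out, and the smallest adjusted p ran from 0.0477 to 0.597. Against obese tumours that count ran from 0 to 1. The number of probe sets at an unadjusted p under 0.05 was 1044 when only those with a mean level of at least 6 were tested, which tests fewer. The number of probe sets outside the untreated range was 9 without the obese group, 9 without the formerly obese group and 10 without the control group, where there are fewer tumours to overlap, and ran from 2 to 7 without single tumours. Of 5087 combinations of a named gene and a setting 5016 kept the direction. Hpgd was -0.011 under quantile normalization, -0.00967 under median centring, -0.15 with array weights and -0.66 without the obese group. Under median centring Reln was -0.019 and Stab2 -0.034. With array weights Il1b was 0.17, Tnf 0.026, Itga9 0.0016 and Tbx1 -0.0169. Without the obese group Il1b was 0.19, Tnf 0.011, Reln -0.071 and Itga9 0.068; without the formerly obese group Slc51b was 0.096, Aox1 -0.16 and Dnajb1 0.0765; without the control group Cdkn1a was 0.11, Bcl2l1 0.029, Reln -0.018, Stab2 -0.080 and Tbx1 -0.056. Without single tumours these genes crossed 0: Bcl2l1 from -0.197 to 0.0171, Cdkn1a from -0.107 to 0.129, Foxc2 from -0.241 to 0.607, Hpgd from -0.332 to 0.632, Il1b from -0.774 to 0.582, Itga9 from -0.164 to 0.0637, Msra from -0.0201 to 0.252, Odc1 from -0.227 to 0.073, Reln from -0.0896 to 0.0911, Sat1 from -0.227 to 0.0568, Stab2 from -0.0624 to 0.0596, Tbx1 from -0.32 to 0.832 and Tnf from -0.397 to 0.255. The cause was not tested. The number of arrays limits all differences: the median standard error was 0.17 log2 units.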
